A study of Mus musculus with 10 samples.

Results

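The genes described are 7 of the 38922 genes in the files, chosen by name for their part in the handling of zinc: the metallothioneins Mt1 and Mt2, the transcription factor Mtf1, and the transporters Slc30a1, Slc30a10, Slc39a14 and Slc39a4. They were measured by RNA sequencing in whole livers of 6-week-old wildtype males of C57BL/6N, an inbred strain. One group of 5 mice received CD95-Ab intraperitoneally at 0.5 µg per g of body weight, an antibody that activates the death receptor Fas on hepatocytes. The other 5 mice received an equal volume of saline, and all livers were taken at 6 h, so that the comparison asks how liver RNA differed from saline-injected controls at that single time. Each mouse gave a library of its own.

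Metallothioneins are small cysteine-rich proteins that bind zinc and copper, and the liver is a main site of their synthesis. Free zinc in the cell is sensed by MTF1, which binds metal response elements in the promoters of Mt1, Mt2 and Slc30a1, while glucocorticoids and inflammatory cytokines also act on the metallothionein genes. Transporters of the SLC39 (ZIP) family bring zinc into the cytoplasm, and those of the SLC30 (ZnT) family take it out, although SLC39A14 also carries iron and manganese and SLC30A10 is known chiefly as a manganese exporter.

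The total of expected counts was between 25965699 and 62097636 in saline-injected controls and between 27480796 and 44962196 after CD95-Ab. Counts were scaled to CPM, counts per 1000000 of a total adjusted with TMM factors, and 3 counts corresponded to between 0.0483 and 0.116 CPM before that adjustment. The difference between groups was tested by edgeR's quasi-likelihood method on the 13719 genes that passed a filter on low counts, with p-values adjusted by the Benjamini-Hochberg method (FDR), and a gene was called higher or lower at an FDR of 0.05 or less. Hepatocyte markers were present in every library, with a summed level of at least 77120 CPM. All the libraries of the mice injected with CD95-Ab stood apart from the controls in several marker lists. The summed level of 10 neutrophil markers was 4.43 to 11.2 CPM in controls and 114.1 to 468.9 CPM after CD95-Ab. For 7 erythrocyte markers it was 135.1 to 324.9 CPM and 1064 to 34010 CPM, and for 8 RNAs without a poly(A) tail, which reflect how libraries were made as well as what cells held, 0.297 to 0.885 CPM and 357.5 to 1311 CPM. Most of this last sum was a single RNA, Rn7sk, with a mean of 0.392 CPM in controls and 742.4 CPM after CD95-Ab. Only 4 of the 8 RNAs passed the filter on low counts. Among all tested genes 25.4% were called higher and 22.0% lower. Beside this, 7 of 8 markers of sinusoidal endothelium, 4 of 7 of stellate cells and 4 of 5 tested of cholangiocytes were called higher, and of 12 hepatocyte markers 1 was higher and 5 were lower. For Kupffer cells and macrophages 3 of 10 markers were higher, near the share of all genes. None of the neutrophil or erythrocyte markers was at 0 in all mice, but 1 of the 8 RNAs without a poly(A) tail was. The part of these differences in the results below was not tested. In bulk liver, fewer cells of a type and less RNA per cell cannot be told apart.

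Both metallothioneins and the zinc importer Slc39a14 were higher after CD95-Ab, and the other 4 genes did not pass the test. Of the 7 genes, all of which passed the filter on low counts, 3 were called higher and 0 lower. Among all tested genes 25.4% were called higher and 22.0% lower, 47.3% in all, so the count of 3 is read against that share moving the same way. Mt1 and Mt2 are also not independent of each other, since they lie 5514 bp apart on the same strand and varied together between mice. At an FDR of 0.05 with a log2 fold change of at least 2, which 6.59% of tested genes passed upwards, 0 of the 7 were called.

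**Figure D1:**
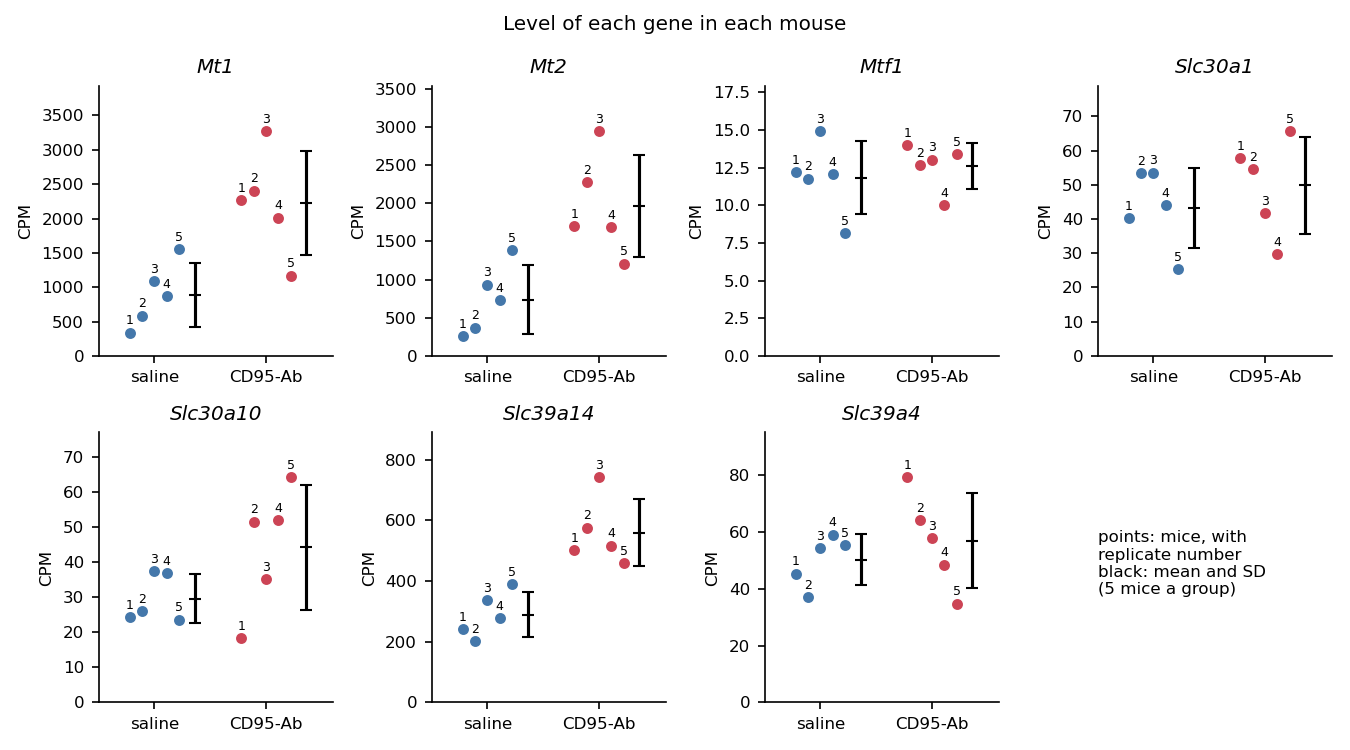
Level of each of the 7 genes in CPM (linear axis from 0, one panel a gene) in each of 5 saline-injected controls (blue) and 5 mice injected with CD95-Ab (red), numbered by replicate, with the mean and SD in black. Slc39a14 separates the groups, Mt1 and Mt2 do so except that saline replicate 5 lies above CD95-Ab replicate 5, and the groups overlap for the other 4 genes.

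Mt1 (ENSMUSG00000031765) and Mt2 (ENSMUSG00000031762) are neighbours on chromosome 8 of GRCm38, at chr8:94179082-94180327 and chr8:94172664-94173568 on the plus strand in GENCODE. The 250 bases before the RefSeq transcript start of each (GRCm38.p6, plus strand) are shown because both genes moved and MTF1 is known to act on their promoters, with those of Slc30a1, a known MTF1 target that did not pass the test. Capitals mark the core of the metal response element, TGCACNC or TGCGCNC, searched on both strands.
Mt1, chr8:94178839-94179088: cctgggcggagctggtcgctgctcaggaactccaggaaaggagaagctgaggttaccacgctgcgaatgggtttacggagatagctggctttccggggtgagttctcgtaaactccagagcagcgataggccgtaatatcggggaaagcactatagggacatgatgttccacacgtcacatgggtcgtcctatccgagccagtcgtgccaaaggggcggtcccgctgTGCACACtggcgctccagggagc
Mt2, chr8:94172368-94172617: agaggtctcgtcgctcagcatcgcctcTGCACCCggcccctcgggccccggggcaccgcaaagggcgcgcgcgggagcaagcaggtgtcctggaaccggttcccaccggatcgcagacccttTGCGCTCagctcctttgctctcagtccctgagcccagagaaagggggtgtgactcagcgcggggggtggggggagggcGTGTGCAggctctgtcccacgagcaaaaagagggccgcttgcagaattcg
Slc30a1, chr1:191906531-191906780: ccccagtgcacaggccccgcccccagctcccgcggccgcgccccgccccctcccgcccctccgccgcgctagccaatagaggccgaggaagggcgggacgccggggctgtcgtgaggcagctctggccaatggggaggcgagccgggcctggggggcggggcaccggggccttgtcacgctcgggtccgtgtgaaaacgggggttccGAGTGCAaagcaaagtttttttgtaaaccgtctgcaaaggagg

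In the window of 300 bases that runs from 250 before to 50 after the start, these letters occurred 3 times for Mt1, 4 times for Mt2, 2 times for Slc30a1, 3 times for Slc30a10 and 0 times for Mtf1. The first 2 matches of Slc30a10 overlap on opposite strands. For Mt1 the matches begin at positions -23, 3 and 21 from the start, so 2 of the 3 fall after the RefSeq start. Mt1 has 3 annotated transcripts and only this window was searched, so elements near any other start would be missed. For Mt2 they begin at -223, -128, -50 and 5, the last pair on the minus strand. Of 32851 mouse windows of the same length, 25.7% held at least 1 match, 7.11% at least 2 and 1.97% at least 3. A longer element, TGACNNNGC, the core of the antioxidant response element, matched once in Mt2 and once in Slc30a1, where 12.4% of windows hold it. The search covered both strands, and a match is only a description of letters. RefSeq windows were at hand for 5 of the 7 genes. Slc39a14 and Slc39a4 had no entry.

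**Figure D2:**
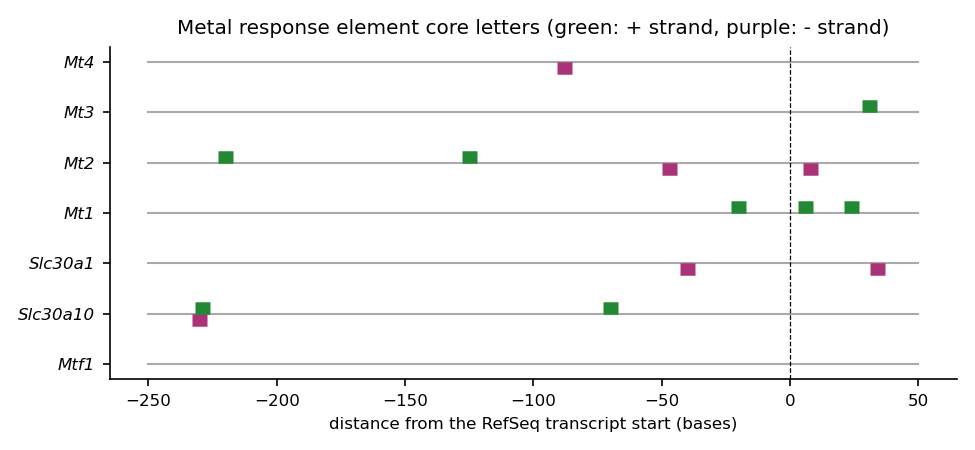
Matches to the metal response element core (TGCACNC or TGCGCNC) by distance in bases from the RefSeq transcript start (dashed line) in the 300-base windows of 7 genes, with plus-strand matches in green above the line and minus-strand matches in purple below. Mt1 and Slc30a10 hold 3 matches each, Mt2 holds 4, Slc30a1 holds 2, Mt3 and Mt4 hold 1 each and Mtf1 holds 0.

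Mt1 stood at 338.8, 584.0, 1084, 871.1 and 1551 CPM in saline replicates 1 to 5 and at 2267, 2406, 3274, 2012 and 1168 CPM in CD95-Ab replicates 1 to 5. Of the 5 treated mice, 4 were above every control, and the exception, CD95-Ab replicate 5, was below saline replicate 5. The mean level was 885.8 ± 466.9 CPM (SD, n = 5) in controls and 2225 ± 757.9 CPM (SD, n = 5) after CD95-Ab, a log2 fold change of 1.33 ± 0.38 (SE; edgeR quasi-likelihood test, FDR 0.0129). The controls were themselves far apart, with the highest at 4.58 times the lowest, against 2.80 times among treated mice.

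Mt2 stood at 262.9, 370.7, 934.9, 731.2 and 1387 CPM in the controls and at 1697, 2277, 2947, 1690 and 1208 CPM in the treated mice, in replicate order. The pattern was that of Mt1, with 4 of 5 treated mice above every control and the same 2 mice crossing. The mean level was 737.3 ± 453.0 CPM (SD, n = 5) in controls and 1964 ± 667.6 CPM (SD, n = 5) after CD95-Ab, a log2 fold change of 1.41 ± 0.42 (SE; edgeR quasi-likelihood test, FDR 0.0148). The highest control was at 5.28 times the lowest and the highest treated mouse at 2.44 times the lowest. With each mouse left out in turn, the log2 fold change lay between 1.12 and 1.63 for Mt1 and between 1.19 and 1.77 for Mt2, with the highest values without saline replicate 5, and both genes remained called in all 10 fits. At an FDR of 0.01 neither was called.

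The pair took a measurable share of the liver's RNA. As a share of all gene counts, Mt1 and Mt2 together made up 0.0675%, 0.109%, 0.209%, 0.160% and 0.255% in the controls and 0.449%, 0.468%, 0.555%, 0.314% and 0.239% in the treated mice. The means were 0.160% ± 0.0753 and 0.405% ± 0.127 (SD, n = 5 each), and CD95-Ab replicate 5 was again within the range of the controls. Ranked by FPKM, a level per transcript length, Mt1 was between the 42nd and 97th gene of the liver in controls and between the 26th and 52nd after CD95-Ab.

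**Figure D3:**
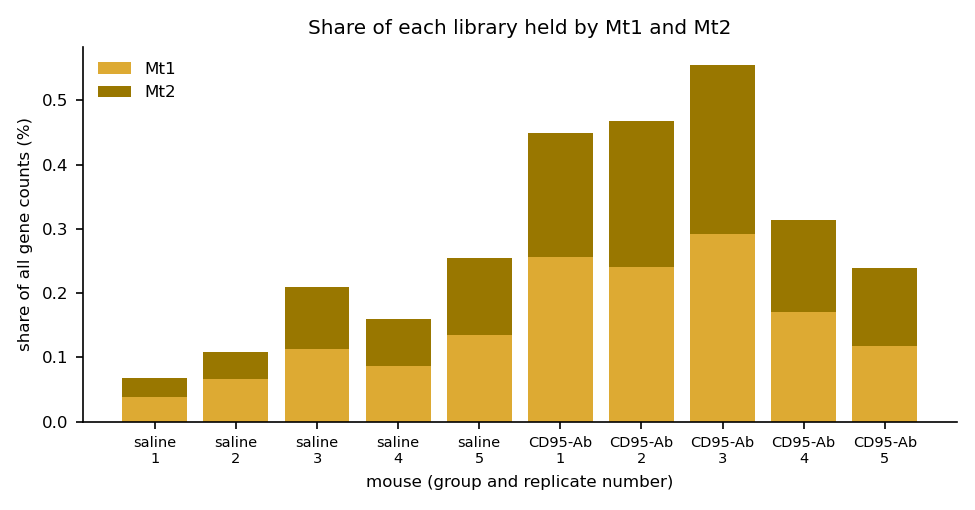
Share of all gene counts (%, linear axis from 0) taken by Mt1 (light) and Mt2 (dark) in each of the 10 mice. The total runs from 0.0675% to 0.255% in saline-injected controls and from 0.239% to 0.555% after CD95-Ab, with 1 treated mouse inside the range of the controls.

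The balance between both genes was less variable than their level. The ratio of Mt1 counts to Mt2 counts was 1.29, 1.57, 1.16, 1.19 and 1.12 in the controls and 1.34, 1.06, 1.11, 1.19 and 0.967 in the treated mice. The mean ratio was 1.27 ± 0.184 and 1.13 ± 0.14 (SD, n = 5 each), a log2 difference of -0.16 that was within the spread of the mice (two-sided exact permutation test, p = 0.222, adjusted p = 0.246 over the 2 ratios tested). A comparison of 5 mice with 5 can reach a p of 0.00794 at the smallest.

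The other metallothioneins of the cluster, Mt3 and Mt4, known from brain and from stratified epithelium, were near the limit of detection and did not pass the filter. Mt3 had at most 1 count in any control and at most 3 in any treated mouse. Mt4 had 0 counts in all 5 controls and 1, 5, 2, 2 and 5 counts in CD95-Ab replicates 1 to 5, too few for a fold change. The only other gene starting within 50 kb of Mt1 or Mt2 was Nup93, a nuclear pore scaffold gene at chr8:94214564-94317227, which rose from 4.40 to 9.001 CPM, a log2 fold change of 1.03 ± 0.13 (SE; edgeR quasi-likelihood test, FDR 8.19e-05).

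Mtf1 (ENSMUSG00000028890, chr4:124802104-124849800), the zinc sensor itself, was expressed at a low level that did not differ between the groups beyond the spread of the mice. It stood at 12.2, 11.8, 14.9, 12.1 and 8.14 CPM in the controls and at 13.99, 12.6, 13.0, 10.01 and 13.4 CPM in the treated mice. The log2 fold change was 0.09 ± 0.16 (SE; edgeR quasi-likelihood test, FDR 0.649). Its sign turned without saline replicate 5, the lowest of the 10 mice, to -0.018.

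Slc39a14 (ENSMUSG00000022094, chr14:70303469-70351425), the importer of zinc, iron and manganese at the hepatocyte membrane, separated the groups completely. It stood at 240.5, 201.4, 337.3, 278.7 and 390.7 CPM in the controls and at 501.9, 575.9, 741.5, 516.5 and 458.0 CPM in the treated mice. All 5 treated mice were above all 5 controls, as was so for 18.6% of all tested genes (14.7% lay below all controls). The mean level was 289.7 ± 75.5 and 558.8 ± 110.5 CPM (SD, n = 5 each), a log2 fold change of 0.95 ± 0.20 (SE; edgeR quasi-likelihood test, FDR 0.00233), and it was the only one of the 7 genes still called at an FDR of 0.01. Of its transcript stretches of 50 bases, 0.187% also occur in transcripts of other genes, and for the other 6 genes none do.

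Slc39a4 (ENSMUSG00000063354, chr15:76612383-76617384), best known as the importer that takes up dietary zinc in the intestine, did not pass the test. It stood at 45.3, 37.0, 54.4, 59.0 and 55.4 CPM in the controls and at 79.1, 64.2, 57.7, 48.5 and 34.8 CPM in the treated mice, so that CD95-Ab replicates 1 and 5 were the highest and the lowest of all 10. The log2 fold change was 0.18 ± 0.21 (SE; edgeR quasi-likelihood test, FDR 0.502).

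Slc30a1 (ENSMUSG00000037434, chr1:191906767-191913247), the zinc exporter of the plasma membrane, stood at 40.2, 53.4, 53.6, 44.1 and 25.3 CPM in the controls and at 57.7, 54.5, 41.7, 29.7 and 65.7 CPM in the treated mice. Of the treated mice 3 were above every control, and the others lay within the range of the controls. The log2 fold change of 0.20 ± 0.24 (SE; edgeR quasi-likelihood test, FDR 0.507) did not pass the test.

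Slc30a10 (ENSMUSG00000026614, chr1:185454848-185468762), the manganese exporter, stood at 24.3, 26, 37.4, 36.8 and 23.6 CPM in the controls. In the treated mice it stood at 18.3, 51.5, 35.1, 52.0 and 64.1 CPM, so that 3 of them were above every control and CD95-Ab replicate 1 was the lowest of all 10 mice. The log2 fold change was 0.58 ± 0.29 (SE; edgeR quasi-likelihood test, FDR 0.114). Slc30a10 was thus not called, nor was it in any of the 12 alternatives or in 9 of 10 fits without 1 mouse. Only without CD95-Ab replicate 1 was it called, with a log2 fold change of 0.78 and an FDR of 0.0101. That fit would make 4 of the 7 genes called higher.

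The ratio of Slc39a14 counts to Slc30a10 counts, a manganese importer over a manganese exporter, was 9.92, 7.75, 9.01, 7.58 and 16.6 in the controls and 27.4, 11.2, 21.1, 9.93 and 7.15 in the treated mice. The treated mice spanned a wider range on both sides. The log2 difference of 0.48 did not exceed the spread of the mice (two-sided exact permutation test, p = 0.246, adjusted p = 0.246 over the 2 ratios tested).

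**Figure D4:**
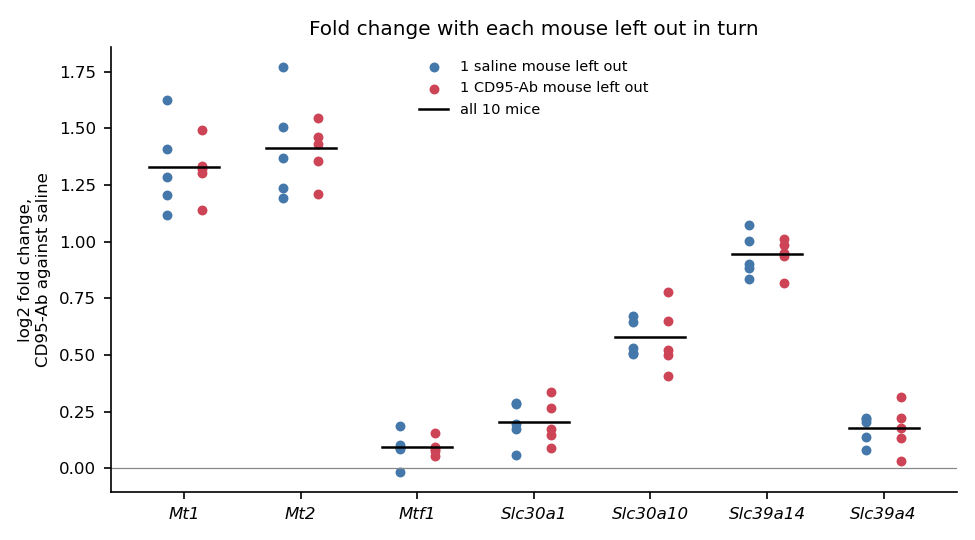
Log2 fold change of each gene, CD95-Ab against saline, with all 10 mice (black line) and with 1 saline-injected control (blue) or 1 mouse injected with CD95-Ab (red) left out. Mt1, Mt2 and Slc39a14 stay above 0.8 in all fits, Slc30a10 reaches 0.78 without CD95-Ab replicate 1, and Mtf1, Slc30a1 and Slc39a4 stay between -0.018 and 0.34.

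In FPKM the 7 genes kept the same order of mean level in both groups. In controls the means were 1818 ± 778 for Mt1, 1452 ± 749.6 for Mt2, 76.2 ± 14.8 for Slc39a14, 23.7 ± 3.06 for Slc39a4, 8.78 ± 2.88 for Slc30a1, 5.29 ± 1.29 for Slc30a10 and 2.92 ± 0.518 for Mtf1 (SD, n = 5). After CD95-Ab they were 4454 ± 1457, 3792 ± 1168, 146.7 ± 25.7, 25.96 ± 10.03, 9.61 ± 3.47, 7.34 ± 2.94 and 2.90 ± 0.413 (SD, n = 5). The ranges of Mt1 and Mt2 overlapped in both groups, as did those of Slc30a1 and Slc30a10, and those of Slc30a10 and Mtf1 overlapped in controls. The other neighbours in the order did not overlap. Within single mice Mt1 was above Mt2 in 5 of 5 controls and in 4 of 5 treated mice.

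Across the 10 mice, Mt1, Mt2 and Slc39a14 deviated from their group means together. Saline replicate 5 was the highest control and CD95-Ab replicate 3 the highest treated mouse for all 3 genes, and CD95-Ab replicate 5 the lowest treated mouse. The summed hepatocyte markers had the same 3 extremes, at 160400, 119400 and 77120 CPM. Their lowest control, saline replicate 4 at 138400 CPM, was not the lowest for any of the 3 genes. A link to the hepatocyte markers was not tested. Pearson's r of the deviations in log2 CPM was 0.972 between Mt1 and Mt2, 0.841 between Mt1 and Slc39a14 and 0.905 between Mt2 and Slc39a14. Mtf1 and Slc30a1 went together as well, with an r of 0.861. With Mt1 they had weaker values, an r of -0.287 for Mtf1 and of -0.401 for Slc30a1, which were not tested against 0. All these values share the same 10 libraries and their scaling, and they are descriptions.

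Among 7050 genes with a mean of at least 10 CPM, the genes whose deviations were most like those of Mt1 were Mt2, Gsk3a with an r of 0.946 and Slc3a2 with an r of 0.934. For Mt2 they were Mt1, Glrx with 0.957 and B4galt1 with 0.949, and for Slc39a14 they were Glrx with 0.971, Slc43a3 with 0.961 and Pnpla2 with 0.949. Glrx, which encodes the cytosolic glutaredoxin, was listed for both Mt2 and Slc39a14, which themselves had an r of 0.905. Each list holds the highest r among the 7050 genes over 10 mice, so high values follow from the selection. For Mtf1 the closest were Tgoln1, Parg and Atad1, with r between 0.984 and 0.987, and for Slc30a1 they were Phf10, Nsd2 and Mcmbp, with r between 0.965 and 0.987. The closest to Slc30a10 were Dram2, Bco2 and Stau1, with r between 0.939 and 0.957, and among the closest to Slc39a4 were Gorasp2, with an r of 0.966, and Arhgef26, with an r of 0.932.

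In the SLC30 family 8 of 10 genes were tested, of which 3 were higher, 0 lower and 5 not called, with a median log2 fold change of 0.39 against 0.01 over all tested genes. Of all tested genes 25.4% were higher and 22.0% lower, so that the family's share called, 3 of 8, was below the 47.3% called overall. The 3 were Slc30a4, at 9.33 ± 1.97 and 17.0 ± 2.996 CPM (SD, n = 5 each), Slc30a5, at 29.3 ± 2.19 and 50.8 ± 4.85 CPM, and Slc30a7, at 18.9 ± 2.51 and 33.4 ± 4.37 CPM. Slc30a5 and Slc30a7 encode transporters that carry zinc into the early secretory pathway. Their log2 fold changes were 0.86 ± 0.17 for Slc30a4 (FDR 0.00159), 0.80 ± 0.10 for Slc30a5 (FDR 8.29e-05) and 0.82 ± 0.13 for Slc30a7 (FDR 0.000318; SE, edgeR quasi-likelihood test for all 3). In each, all 5 treated mice were above all 5 controls, as was so for 18.6% of all tested genes (14.7% lay below all controls).

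In the SLC39 family 12 of 14 genes were tested, of which 5 were higher, 2 lower and 5 not called, with a median log2 fold change of 0.14. This stands beside 25.4% higher and 22.0% lower among all tested genes. The largest rises were those of the closely related plasma membrane importers Slc39a6 and Slc39a10, both from a low level. Slc39a10 stood at 1.91, 1.81, 1.27, 1.35 and 1.61 CPM in the controls and at 8.15, 5.38, 6.13, 3.92 and 4.63 CPM in the treated mice. All treated mice were above all controls, as was so for 18.6% of all tested genes (14.7% lay below all controls). The log2 fold change of Slc39a10 was 1.82 ± 0.22 (SE; edgeR quasi-likelihood test, FDR 4.89e-05). Slc39a6 rose from 1.87 ± 0.590 to 6.68 ± 1.46 CPM (SD, n = 5 each), a log2 fold change of 1.83 ± 0.24 (SE; edgeR quasi-likelihood test, FDR 8.1e-05).

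Slc39a14, Slc39a1 and Slc39a7 made up the other genes called higher. Slc39a7 encodes the importer that releases zinc from the endoplasmic reticulum and rose by a log2 fold change of 0.63 ± 0.18, and Slc39a1 rose by 0.58 ± 0.13 (SE; edgeR quasi-likelihood test, FDR 0.012 and 0.00312). With library totals in place of TMM factors, Slc39a1 and Slc39a7 were not called, which left 3 higher and 2 lower. Slc39a2 fell from 0.789 ± 0.268 to 0.185 ± 0.0846 CPM (SD, n = 5 each), a log2 fold change of -2.10 ± 0.38 (FDR 0.00086), and Slc39a11 from 16.9 ± 1.99 to 12.7 ± 1.604 CPM, a log2 fold change of -0.41 ± 0.12 (FDR 0.0169; SE, edgeR quasi-likelihood test for both). The fall of Slc39a2 ended near the limit of detection, at 3 to 8 counts in the treated mice. The closest relative of Slc39a14, Slc39a8, stood at 18.8 ± 4.10 CPM in controls and 20.0 ± 9.88 CPM after CD95-Ab (SD, n = 5 each), a log2 fold change of 0.09 ± 0.28 (SE; edgeR quasi-likelihood test, FDR 0.807).

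**Figure D5:**
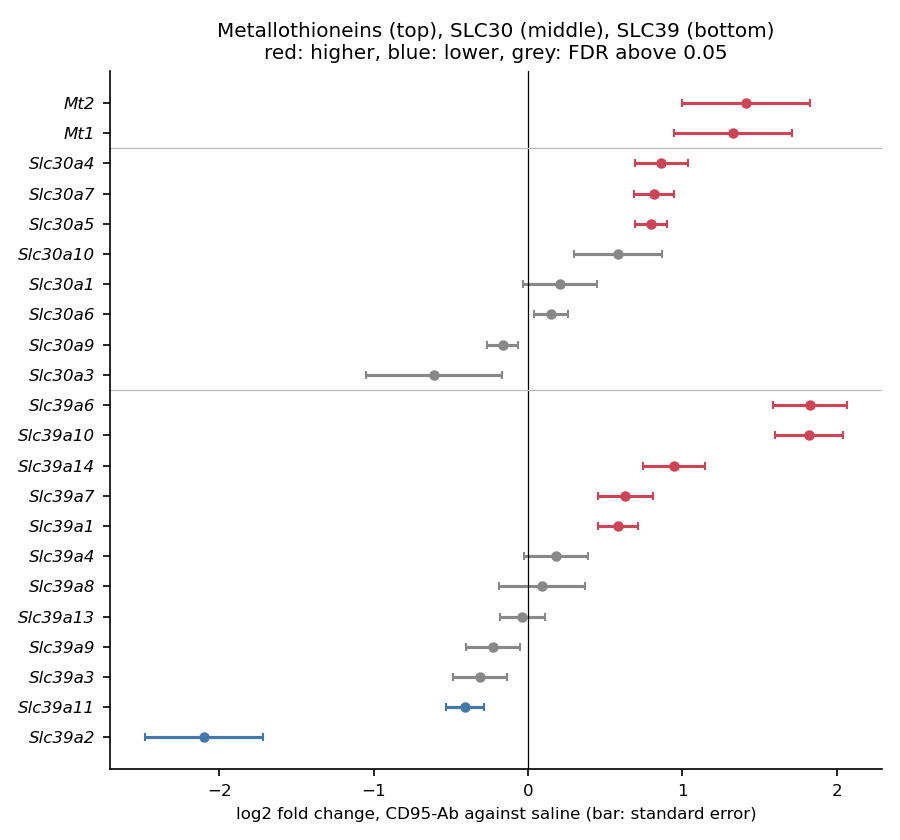
Log2 fold change, CD95-Ab against saline, with its standard error (bars), for the tested metallothioneins (top), SLC30 genes (middle) and SLC39 genes (bottom). Red marks genes called higher, blue those called lower and grey those with an FDR above 0.05, and the values run from -2.10 for Slc39a2 to 1.83 for Slc39a6.

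Of 10 genes known as targets of MTF1, 9 were tested, 5 were higher, 2 lower and 2 not called, with a median log2 fold change of 0.93, beside 25.4% higher and 22.0% lower among all tested genes. The 5 included Mt1 and Mt2. They also included Slc39a10, which, unlike those genes, MTF1 is known to repress. The others were Csrp1, which encodes a cytoskeletal LIM protein and rose from 8.38 ± 2.60 to 36.1 ± 10.6 CPM (SD, n = 5 each; log2 fold change 2.11 ± 0.26 (SE), edgeR FDR 5.77e-05), and Ndrg1, with a log2 fold change of 0.93 ± 0.27 (SE; edgeR FDR 0.0143). Txnrd2 and Selenoh, both selenoproteins, were lower, by log2 fold changes of -0.43 ± 0.11 and -0.54 ± 0.18 (SE; edgeR FDR 0.00608 and 0.0265). Gclc, of glutathione synthesis, was at 250.9 ± 42.5 and 257.2 ± 62.8 CPM (SD, n = 5 each) and was not called. Since the list holds a repressed gene beside Mt1 and Mt2, its direction is no measure of MTF1 activity, which was not tested.

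Among 10 genes of manganese handling, 3 were higher, 2 lower and 5 not called, close to the 25.4% higher and 22.0% lower among all tested genes. Besides Slc39a14, the importer Slc11a2 was higher, at 21.8 ± 5.75 and 86.6 ± 19.2 CPM (SD, n = 5 each; log2 fold change 1.99 ± 0.21 (SE), edgeR FDR 1.53e-05), as was Tmem165 of the Golgi, with a log2 fold change of 0.67. Slc40a1, which encodes the exporter ferroportin, and Atp13a2 were lower, with log2 fold changes of -0.90 and -0.58.

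Metallothioneins also bind copper, and of 16 genes of copper handling 3 were higher, 4 lower and 9 not called, a share called near the 47.3% of all tested genes. The metalloreductase gene Steap4 had a log2 fold change of 4.32 ± 0.35 and the gene of the plasma copper carrier ceruloplasmin, Cp, of 1.29 ± 0.18, while Atp7b, which loads copper into ceruloplasmin and bile, had -1.26 ± 0.20 and the assembly factor Cox11 -0.80 ± 0.16 (SE; edgeR quasi-likelihood test, FDR 2.9e-06, 0.000113, 0.000393 and 0.00139).

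Of 3 plasma zinc binder genes, 1 was higher and 2 lower, beside 25.4% higher and 22.0% lower among all tested genes. Alb, albumin, fell by a log2 fold change of -1.03 ± 0.25 and Hrg by -0.54 ± 0.12 (SE; edgeR quasi-likelihood test, FDR 0.00529 and 0.00291). A2m rose by 6.13 ± 0.93 (SE; edgeR quasi-likelihood test, FDR 0.000237), from a mean of 0.238 CPM to 16.2 CPM. Its level in controls was low, against a mean of 84730 CPM for Alb. Of 19 zinc-dependent enzymes of the liver, 3 were higher, 9 lower and 7 not called, with a median log2 fold change of -0.53, beside 25.4% higher and 22.0% lower among all tested genes. Those of lowest FDR were Car5a, the mitochondrial carbonic anhydrase, at -1.95, Gda, guanine deaminase, at 1.58, Sord, sorbitol dehydrogenase, at -1.24, and Ace, angiotensin-converting enzyme, at 1.96 (log2 fold changes).

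Glucocorticoids and interleukin 6 are the other known regulators of Mt1 and Mt2. Of 20 acute phase and interleukin 6 genes, 18 were higher, 0 lower and 2 not called, with a median log2 fold change of 1.62, beside 25.4% higher among all tested genes. They included Lcn2, with a log2 fold change of 5.90 ± 0.56, Saa3 with 6.44 ± 0.69, Socs3 with 3.56 ± 0.43 and Orm1 with 1.52 ± 0.19 (SE). Of 14 glucocorticoid-responsive genes, 4 were higher, 2 lower and 8 not called, near the 25.4% higher of all tested genes and below the 22.0% lower. Igfbp1 and Cebpd had log2 fold changes of 2.29 and 2.27, and Tsc22d3 and Pck1 had -2.26 and -0.97. Genes of this list, those higher and those lower alike, can also respond to other signals. Both lists were measured in the same mice as the metallothioneins, and a link between them was not tested.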

How the data were processed

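Liver RNA of 10 male mice, 5 per group, was prepared with TruSeq reagents and read in pairs; the groups and replicate numbers came from the sample titles. Per the labels, the authors estimated expression with RSEM 1.2.19. The deposited expected counts were whole numbers, without normalization, and no rounding was needed. The FPKM values deposited by the authors are scaled for transcript length and library total; they gave levels between genes and an alternative test. The genome build and mouse annotation are not given in the sources used here: the paper names a human annotation, whereas the identifiers are mouse Ensembl. Positions and symbols are those of GENCODE release 21 for mouse (GRCm38), which holds 37606 of the 38922 identifiers, and promoter sequences from RefSeq (GRCm38.p6).

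Genes were kept by filterByExpr (minimum count 10) and tested by the quasi-likelihood method in edgeR 4.0.16 (R 4.3.3) with TMM factors and group as the only term; the SE was derived from the F statistic. Ratios were compared with exact permutation tests (scipy 1.17.1). Alternatives used DESeq2 1.42.0 and limma 3.58.1 on log2(FPKM + 0.1) and log2(FPKM + 1), other factors, filters and thresholds, a block for the replicate number, and fits without each mouse. On simulated counts of 13719 genes with 5 mice per group, the test recovered 59% of 2-fold and 98% of 4-fold changes, and 4.85% of its calls were unchanged genes. Only 100 genes were changed at each fold, equally up and down and drawn from better-expressed genes. In the data 47.3% of genes were called, so these rates may not apply to them. No libraries were duplicates (chi-square per degree of freedom at least 39.4 between mice of a group). In the shallowest library 3 counts equal 0.116 CPM, which covers counting error only.

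The 7 genes and all gene lists were chosen with earlier results of these data known. Named besides the 7 were, for each family or MTF1 target list, up to 4 called genes with the largest changes, for the other lists up to 4 genes of lowest FDR, genes starting within 50 kb of Mt1 or Mt2, and the 3 genes most like each of the 7, of which 1 is not reported here. The remaining called SLC39 genes, Slc39a8, Ndrg1, Gclc, Selenoh and Txnrd2 were named after their values were seen.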

Additional observations from a re-analysis of the deposited data

Results flagged for a closer look

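In 1 of 18 groups of 5 mice checked, a single mouse lay far from the rest, where chance alone gives about 1 in 20. The ratio of Slc39a14 counts to Slc30a10 counts was 16.6 in saline replicate 5, and between 7.58 and 9.92 in the other 4 controls. That mouse had the highest Slc39a14 and the lowest Slc30a10 of the controls, and the deepest library.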

How the results depend on the processing

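The count of 3 genes called higher held in 10 of 12 alternatives and in 9 of 10 fits without 1 mouse (range 3 to 4), and was 1 at an FDR of 0.01 and 0 when a log2 fold change of 2 was also required. No gene of the 7 was called lower in any of them (0 to 0). The second threshold left 0 SLC30 and 0 SLC39 genes higher. The SLC39 genes called higher numbered 3 with library totals only and 3 with limma on FPKM at either pseudocount, and those called lower 1 with at least 10 counts in every mouse, 1 with the replicate block, 1 at an FDR of 0.01 and 1 with the fold threshold. They numbered 3, the added gene being Slc39a5, which filterByExpr left out with all 10 mice, with DESeq2, with no filter on low counts, with limma on FPKM at either pseudocount and in 7 of 10 fits without 1 mouse. For these counts the cause was not tested, beyond the fewer genes that a stricter threshold passes. Without 1 mouse the counts were 3 to 4 (SLC30 higher), 0 to 0 (SLC30 lower), 5 to 5 (SLC39 higher) and 2 to 3 (SLC39 lower), and the log2 differences -0.22 to -0.08 (Mt1 to Mt2) and 0.23 to 0.71 (Slc39a14 to Slc30a10). Mtf1 changed sign without saline replicate 5 (-0.018, with a range of -0.018 to 0.19 without 1 mouse) and with limma on FPKM (-0.0044 and -0.0045). The replicate numbers gave no clear sign of pairing between the groups. Same-numbered mice correlated at 0.257, 0.0875, 0.13, -0.0166 and -0.274, and 2 of 5 correlated best with their own number. These 5 values cannot show that no pairing existed. With the replicate block 3310 genes were called higher and 2677 lower, against 3480 and 3015 without it, and 3 of the 7 genes were called. Depth does not limit the 7 genes, all above 8 CPM in every mouse, but does limit Mt3 and Mt4.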
